A study of Homo sapiens with 30 samples.

Results

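Ligands of the tumour necrosis factor (TNF) superfamily were followed in 5 established human lines, each from an acute lymphoblastic leukaemia of T cells (T-ALL) and named Loucy, PER-117, PEER, MOLT-16 and TALL-1. The 10 ligand genes were matched by symbol, a rule that uses no measured value, and all 10 were found among the 60554 gene identifiers of the count tables. They are TNF, LTA, LTB, CD70, FASLG, TNFSF10, TNFSF12, TNFSF13B, TNFSF14 and TNFSF9. Each line had been cultured in RPMI-1640 medium for 48 h with 1 µM decitabine, or with its vehicle dimethyl sulfoxide (DMSO), and 3 libraries were made per line and treatment, 30 in all. Decitabine is a cytidine analogue that is built into DNA and depletes DNA methyltransferases. The comparisons asked how much of each ligand transcript the untreated lines held, and which ligand transcripts changed when the drug was given. Each line is a single established culture, so the 3 libraries of a group say nothing about other leukaemias.

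TNF superfamily ligands are mostly trimeric proteins anchored in the cell membrane, some of which are cut off and act at a distance. They bind receptors of the TNF receptor superfamily on neighbouring cells. Receptors with a death domain can start apoptosis through FADD and caspase 8, and the others act mainly through TRAF adaptor proteins on NF-κB. In T cells several of these ligands are made only for a time after activation, and they act in co-stimulation, in the shaping of lymphoid tissue and in the killing of target cells.

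Levels are given in CPM (counts per 1e6 reads of the scaled library size), as single libraries or as mean ± SD (n = 3 libraries). Changes are log2 values of decitabine over DMSO with an approximate standard error (SE), and a gene is said to rise or fall where the edgeR test gave an adjusted p under 0.05 over the 15081 genes tested. The labels do not say that the libraries of a group came from separate cultures, so p-values measure only the spread between these libraries, which may be technical. In bulk RNA, fewer cells with a transcript and less transcript per cell cannot be told apart. The libraries held 2197347 to 15391979 gene reads, with the fewest in a MOLT-16 library and the most in a Loucy library. Transcripts of T-cell identity were present in every group, all 10 of 10 markers, with summed levels of 422 to 2906 CPM per library.

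In 3 DMSO libraries, transcripts otherwise restricted to another line stood apart. The rule for these genes allowed a single DMSO library of another line to be high, and no decitabine library. Decitabine libraries were therefore not checked for such transcripts. MOLT-16 DMSO replicate 3 and TALL-1 DMSO replicate 3 held all 18 genes restricted to PEER, at a median of 20.7% and 14.6% of their level in PEER. PEER DMSO replicate 2 held the 3 genes restricted to TALL-1 at 15.5%, and 12 of 13 genes restricted to MOLT-16 at 6.17%. Calls on the ligands' responses that changed without one or all of these libraries are given both ways. All 10 ligands passed the filter on low counts. On the DMSO libraries alone 8 of them would have passed, and FASLG and TNFSF9 would not, so these genes entered the test through libraries of treated cells. Genes of the other lists were not put through that check.

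Of the ligands, 6 lie in tight clusters. LTA (31572054-31574324), TNF (31575567-31578336) and LTB (31580525-31582522, minus strand) follow each other on chromosome 6 (GRCh38, GENCODE 29). TNFSF9 (6530999-6535928), CD70 (6583183-6604103, minus strand) and TNFSF14 (6661253-6670588, minus strand) follow each other on chromosome 19. The other ligands lie elsewhere: FASLG on chromosome 1 (172659018-172666874), TNFSF10 on chromosome 3 (172505508-172523507, minus strand), TNFSF13B on chromosome 13 (108251240-108308484) and TNFSF12 on chromosome 17 (7548891-7557890), where the ligand gene TNFSF13 (7558292-7561608) follows it. All of them are protein-coding.

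Decitabine depletes DNA methyltransferases, the enzymes that methylate CpG sites. The sequence before the start site is therefore shown for the clustered ligands that had one in the RefSeq promoter table (GRCh38.p14). Each is written 5′ to 3′ on the gene's strand, with CpG sites in capitals, and only bases outside annotated exons are printed. The stretches are, in order, LTA at chr6:31571849-31572053 (plus), TNF at chr6:31575315-31575564 (plus), LTB at chr6:31582523-31582675 (minus), TNFSF9 at chr19:6530776-6530998 (plus) and TNFSF14 at chr19:6670161-6670295 (minus).
LTA: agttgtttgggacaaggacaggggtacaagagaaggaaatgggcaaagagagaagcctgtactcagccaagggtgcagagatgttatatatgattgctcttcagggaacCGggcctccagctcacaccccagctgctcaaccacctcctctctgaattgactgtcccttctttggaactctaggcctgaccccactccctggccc
TNF: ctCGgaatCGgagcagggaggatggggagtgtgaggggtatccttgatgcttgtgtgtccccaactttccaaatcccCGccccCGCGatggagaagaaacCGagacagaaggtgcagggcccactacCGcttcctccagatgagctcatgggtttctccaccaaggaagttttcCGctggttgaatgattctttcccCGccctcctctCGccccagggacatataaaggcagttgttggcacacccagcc
LTB: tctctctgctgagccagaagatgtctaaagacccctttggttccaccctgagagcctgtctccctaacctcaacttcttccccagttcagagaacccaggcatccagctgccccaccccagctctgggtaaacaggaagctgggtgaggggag
TNFSF9: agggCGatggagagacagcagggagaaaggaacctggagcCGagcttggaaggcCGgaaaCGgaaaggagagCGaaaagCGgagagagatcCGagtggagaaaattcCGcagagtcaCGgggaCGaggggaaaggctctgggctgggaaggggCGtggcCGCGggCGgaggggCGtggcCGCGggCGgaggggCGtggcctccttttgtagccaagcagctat
TNFSF14: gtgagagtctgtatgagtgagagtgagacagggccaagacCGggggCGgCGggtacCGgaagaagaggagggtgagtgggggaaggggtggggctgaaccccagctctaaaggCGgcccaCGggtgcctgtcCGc
Over the full 250 bases before the start, TNFSF9 held 23 CpG sites, TNF 10, TNFSF14 9, LTA 3 and LTB 2. Of the single genes FASLG and TNFSF10 held 2 each and TNFSF13B held 0. Over 27305 promoters of the table the median was 11, with quartiles of 3 and 23. TNFSF9 therefore had the most CpG sites of the 8 ligands with a window, and 74.6% of all promoters had fewer. Binding motifs of NF-κB, searched as 3 G, any 2 bases, then either 3 T and 2 C or 2 T and 3 C, on both strands and able to overlap each other, occurred in 3.5% of all promoters. Among the ligands only LTB held a match, GGGACTTTCC on the opposite strand, 86 to 77 bases before the RefSeq start, inside an annotated exon and so not in the stretch printed. No methylation was measured in these libraries, and a match is a description of letters.

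The untreated lines differed in their levels of the ligands, as they did for most genes. In DMSO, all 10 ligands differed between the 5 lines (adjusted p between 5.27e-17 for LTB and 0.00947 for TNFSF9), where 91.6% of all genes did. A count of 10 of 10 is therefore near the background. PER-117 had the highest mean of LTA, LTB, CD70, FASLG, TNFSF10 and TNFSF14, MOLT-16 that of TNF, TNFSF13B and TNFSF9, and PEER that of TNFSF12. Loucy had the lowest mean of every ligand except FASLG and TNFSF13B.

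LTB encodes lymphotoxin beta, which anchors lymphotoxin alpha at the cell surface. In untreated cells it stood at 1811 ± 282 CPM in PER-117, 586 ± 143 CPM in TALL-1, 470.5 ± 29.3 CPM in PEER, 168 ± 60.5 CPM in MOLT-16 and 47.3 ± 7.35 CPM in Loucy. In that order only TALL-1 and PEER did not differ (adjusted p = 0.207), and each other step passed. Levels of TNFSF14, a ligand known as LIGHT that binds HVEM and the lymphotoxin beta receptor, ran from 70.5 ± 5.63 CPM in PER-117 through 35.5 ± 10.8 CPM in MOLT-16, 6.75 ± 0.996 CPM in PEER and 1.32 ± 1.21 CPM in TALL-1 to 0.590 ± 0.157 CPM in Loucy. For this gene every step passed, the last, between TALL-1 and Loucy, at an adjusted p of 0.0446. That last step did not pass without the 3 DMSO libraries that stood apart (adjusted p = 0.183).

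LTA encodes lymphotoxin alpha, the soluble relative of TNF. Its level of 15.9 ± 2.79 CPM in PER-117 stood alone, and the other lines lay between 1.35 ± 0.525 CPM in MOLT-16 and 0.131 ± 0.0697 CPM in Loucy, with no neighbours in that order differing. TNF itself was low everywhere, at 8.92 ± 7.07 CPM in MOLT-16, 3.94 ± 2.63 CPM in TALL-1, 3.90 ± 1.11 CPM in PER-117 and 2.59 ± 2.57 CPM in PEER. Only the step from PEER down to Loucy, at 0.315 ± 0.231 CPM, passed (adjusted p = 0.00150). Without the 3 DMSO libraries TNF had means of 4.96 CPM in MOLT-16, 3.50 CPM in TALL-1 and 1.12 CPM in PEER, each of 2 libraries, and the step from PEER to Loucy did not pass (adjusted p = 0.0669) while that from TALL-1 to PEER did (adjusted p = 0.0483).

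CD70, the ligand of the co-stimulatory receptor CD27, stood at 43.4 ± 18.4 CPM in PER-117, 23.1 ± 14.3 CPM in MOLT-16, 9.69 ± 1.60 CPM in PEER, 3.64 ± 4.57 CPM in TALL-1 and 0.787 ± 0.412 CPM in Loucy. The steps from MOLT-16 to PEER and from TALL-1 to Loucy passed. Without the 3 DMSO libraries CD70 in TALL-1 had a mean of 1.07 CPM, and it then differed from PEER (adjusted p = 3.80e-04) and not from Loucy (adjusted p = 0.679). TNFSF10, the death ligand TRAIL, stood at 49.1 ± 5.74 CPM in PER-117, 22.1 ± 2.26 CPM in PEER, 13.8 ± 2.31 CPM in MOLT-16, 7.15 ± 5.24 CPM in TALL-1 and 6.18 ± 0.218 CPM in Loucy. PEER and MOLT-16 did not differ for TRAIL (adjusted p = 0.0732), nor did TALL-1 and Loucy (adjusted p = 0.498), whose order turned without the 3 DMSO libraries (4.82 CPM in TALL-1).

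TNFSF13B, the B-cell survival factor BAFF, was the one ligand led by MOLT-16 with a difference to the next line. It stood there at 19.7 ± 3.10 CPM, against 11.0 ± 2.80 CPM in PEER, 3.67 ± 0.355 CPM in Loucy, 1.90 ± 0.631 CPM in PER-117 and 1.83 ± 1.21 CPM in TALL-1, and only the last 2 lines did not differ. FASLG, the Fas ligand of cytotoxic T cells, was rare: 55 reads in untreated PER-117 (1.98 ± 1.10 CPM), 8 in MOLT-16, 7 in Loucy, 2 in PEER and 0 in TALL-1. No neighbours in its order differed. TNFSF12, the ligand TWEAK, ran from 2.64 ± 0.692 CPM in PEER and 1.71 ± 0.685 CPM in PER-117 to 0 reads in Loucy. TNFSF9, the ligand 4-1BBL, had between 3 reads in Loucy and 11 reads in MOLT-16 over the 3 DMSO libraries of a line.

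Between single pairs of lines, Loucy and PER-117 differed in all 10 ligands, where 57.5% of all genes differed. MOLT-16 and Loucy differed in 9 (background 61.3%), PEER and Loucy in 8 (58.2%) and TALL-1 and Loucy in 8 (60%). PER-117 differed from PEER in 7 (56.4%), from MOLT-16 in 7 (57.7%) and from TALL-1 in 6 (58.2%). PEER and MOLT-16 differed in 6 (46.2%), TALL-1 and MOLT-16 in 6 (48.2%), and PEER and TALL-1 in 4 (42.8%). The counts of TALL-1 against PER-117 and against PEER are near their background. Without the 3 DMSO libraries LTA, CD70, TNFSF14 and TNFSF9 did not differ between TALL-1 and Loucy, nor TNF between PEER and Loucy, and Loucy and PER-117 still differed in all 10.

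**Figure D1:**
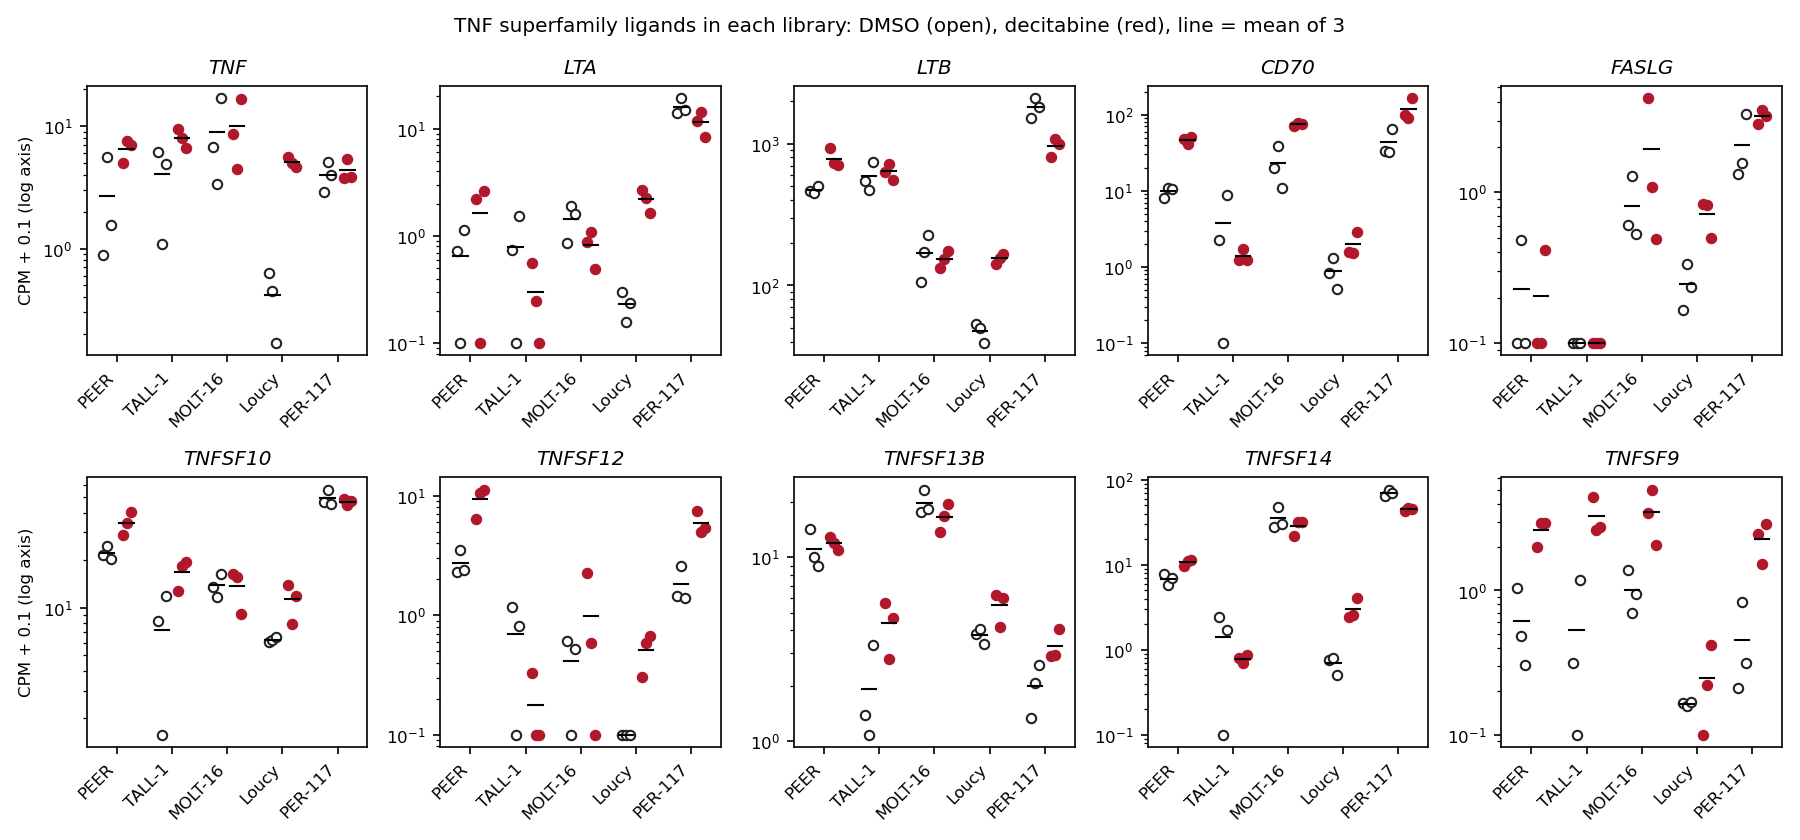
Each panel plots 1 ligand in the 30 libraries, with the cell line on the x axis and CPM on a log axis (0.1 CPM added so that libraries with 0 reads can be drawn). Open points are DMSO libraries, red points decitabine libraries and short lines means of 3. In Loucy the treated libraries of TNF, LTA, LTB and TNFSF14 lie above all DMSO libraries, and in PER-117 those of LTB lie below them.

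With decitabine, different sets of ligands passed the test in different lines. Depth also differed, at 2197347 to 5259040 gene reads per library in MOLT-16 and 10161472 to 15391979 in Loucy. A call in some lines and not in others therefore does not show that the responses differed. TNFSF12 had a log2 change of 1.76 in PEER, which passed, and 1.76 in MOLT-16, which did not. By the test between lines given below, 6 of 10 ligands differed in their response, where 13.6% of all genes did. In Loucy 6 of 10 rose, TNF, LTA, LTB, TNFSF10, TNFSF12 and TNFSF14, where 10.6% of all genes rose. In PEER LTB, CD70 and TNFSF12 rose (3 of 10, background 3.54%), and in PER-117 CD70, TNFSF12 and TNFSF9 did (3 of 10, background 8.67%). In TALL-1 TNFSF10 and TNFSF9 rose (2 of 10, background 6.74%), and in MOLT-16 CD70 alone did (1 of 10, background 2.19%). The only fall was that of LTB in PER-117 (1 of 10, background 3.16%). TNFSF9 was tested only because its treated libraries are high, so its calls are a description. Among the 8 ligands that pass the filter on DMSO libraries alone, 1 rose in TALL-1 and 2 in PER-117, and the other counts stand.

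The count of falling ligands was 0 in edgeR in the other 4 lines, where 0.961% of all genes fell in PEER, 6.12% in TALL-1, 1.01% in MOLT-16 and 4.13% in Loucy. At an unadjusted p under 0.05, 1 ligand was lower in TALL-1 and 0 in PEER, MOLT-16 and Loucy, and DESeq2 gave 0 in each of these lines. The median log2 change over the 10 ligands was 1.85 in Loucy (the same with TNFSF12, at 0 reads in DMSO, set to its lower bound), 1.02 in PEER, 0.38 in PER-117, 0.06 in TALL-1 and 0.05 in MOLT-16. Over all genes tested it lay between -0.02 and 0.05. Without the 3 DMSO libraries that stood apart, 4 ligands rose in PEER (background 4.7%), 3 in TALL-1 (7.46%), 1 in MOLT-16 (9.78%), 7 in Loucy (14.5%) and 3 in PER-117 (11.9%), and 2 fell in PER-117 (5.6%). The single riser in MOLT-16 is then at the background.

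**Figure D2:**
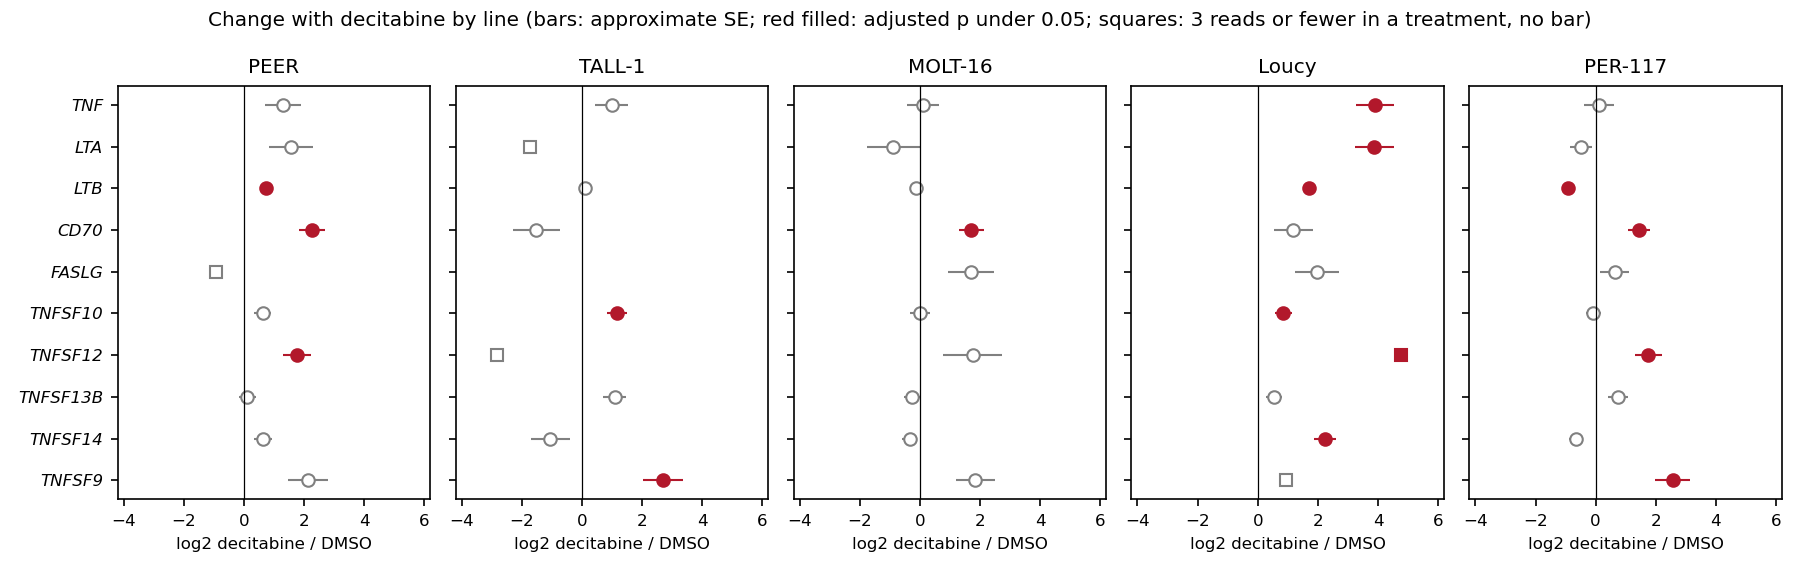
Log2 change of each ligand with decitabine in each line, with the approximate SE as bars. Filled red points passed the test, and squares, drawn without a bar, had 3 reads or fewer in a treatment. Red points number 6 in Loucy, 4 in PER-117, 3 in PEER, 2 in TALL-1 and 1 in MOLT-16.

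The lymphotoxin and TNF genes on chromosome 6 rose together in Loucy. TNF had 0.526, 0.350 and 0.0683 CPM in the untreated libraries and 5.54, 4.94 and 4.51 CPM in the treated ones, from 15 and 220 reads. The log2 change of TNF was 3.91 (SE 0.64, adjusted p = 5.69e-05), a 15.0-fold rise. LTA had 0.197, 0.0584 and 0.137 CPM before and 2.57, 2.17 and 1.53 CPM after, from 6 and 93 reads.

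The change of LTA was 3.88 (SE 0.65, adjusted p = 7.28e-05). In both genes the groups were well apart, and no treated library came near an untreated one. LTB had 53.1, 49.8 and 39.1 CPM before and 143, 155 and 168 CPM after, a log2 change of 1.71 (SE 0.21, adjusted p = 7.42e-07). All 3 calls held when any 1 Loucy library was left out and under every alternative tried. The treated Loucy libraries lay within the range of untreated MOLT-16, which ran from 106.5 to 227.5 CPM, and below every library of PEER, TALL-1 and PER-117.

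In PER-117 the same gene went the other way. Its 3 untreated libraries held 1526, 2089 and 1816 CPM of LTB and the treated ones 811, 1078 and 1000 CPM, with no overlap and 50511 and 33184 reads. The log2 change was -0.91 (SE 0.20, adjusted p = 0.00219). LTA in PER-117 was at 13.9, 19.1 and 14.8 CPM before and 11.7, 14.2 and 8.21 CPM after, groups that overlapped (log2 -0.49, adjusted p = 0.451). TNF in PER-117 lay between 2.79 and 5.30 CPM in all 6 libraries.

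In PEER LTB went from 462, 447 and 503 CPM to 927, 724 and 703 CPM, a log2 change of 0.74 (SE 0.20, adjusted p = 0.0304). This call was lost when PEER decitabine replicate 1 (log2 0.60, adjusted p = 0.162) or 2 (adjusted p = 0.0588) was left out, and also without DMSO replicate 1, 2 or 3 (adjusted p = 0.0776, 0.0883 and 0.0524). TNF in PEER was at 0.787, 5.53 and 1.45 CPM before and 4.90, 7.52 and 6.99 CPM after, and did not pass (log2 1.29, adjusted p = 0.235). The high untreated value was that of replicate 2, the library that held transcripts of TALL-1 and MOLT-16. Without that library the log2 change of TNF in PEER was 2.50 (adjusted p = 0.0384).

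In TALL-1 and MOLT-16 the chromosome 6 ligands did not pass. LTB in TALL-1 ranged from 469 to 745 CPM over the 6 libraries. TNF in TALL-1 was at 6.01, 0.984 and 4.83 CPM before and 9.43, 7.93 and 6.50 CPM after, groups that did not overlap (log2 0.99, adjusted p = 0.255). In MOLT-16 TNF was at 6.64, 3.28 and 16.8 CPM before and 8.62, 4.40 and 16.6 CPM after, so that the spread within a treatment was larger than any difference between them. LTA had 16 reads or fewer per treatment in both lines.

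Genes next to these ligands did not pass in Loucy. Of 8 neighbours listed 7 were tested, and in Loucy edgeR called 0 of them higher, with 0 at an unadjusted p under 0.05 and 0 by DESeq2. Of all genes 10.6% rose in Loucy, so a count of 0 among 7 is near the background. Their median log2 change in Loucy was -0.19, against 0.03 for all genes. AIF1, a calcium-binding protein of immune cells, was the one neighbour called in any line with all libraries, and it fell in TALL-1 (log2 -0.53) and in PER-117 (log2 -0.44). Without the 3 DMSO libraries LST1 also fell in TALL-1 and PER-117 and NFKBIL1 in MOLT-16, both named after their values were seen.

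**Figure D3:**
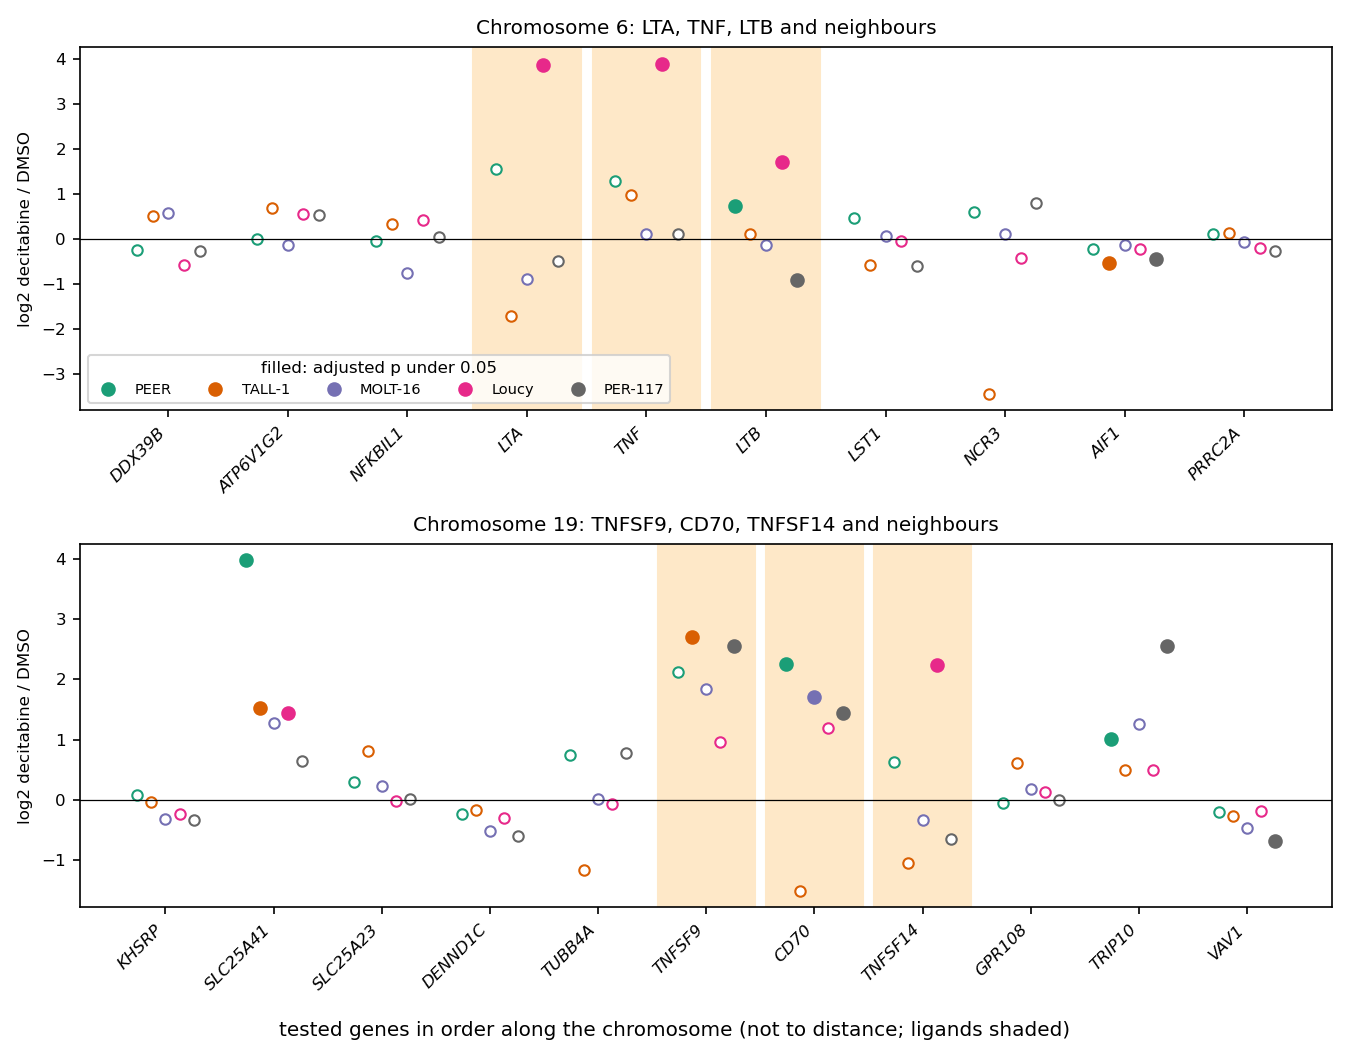
Log2 change with decitabine of the tested genes in their order along the chromosome, 1 colour per line, for the chromosome 6 cluster (top) and the chromosome 19 cluster (bottom). Filled points passed the test and shaded columns are the ligands. In Loucy LTA, TNF and LTB are filled at 3.88, 3.91 and 1.71, and none of the 7 tested neighbours on chromosome 6 is. Of all genes 10.6% rose in Loucy, so none among 7 is near the background.

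Of the chromosome 19 ligands, CD70 rose in most lines. In PEER it went from 7.87, 10.9 and 10.3 CPM to 47.6, 40.4 and 50.2 CPM, a log2 change of 2.26 (SE 0.44, adjusted p = 0.00239), and that call held with any 1 PEER library left out. In MOLT-16 it went from 19.9, 38.7 and 10.7 CPM to 70.2, 77.3 and 75.8 CPM (log2 1.71, SE 0.42, adjusted p = 0.0197). In PER-117 it went from 33.2, 32.3 and 64.6 CPM to 100.0, 90.4 and 164 CPM (log2 1.44, SE 0.38, adjusted p = 0.0104). The treated libraries lay above all untreated ones in these 3 lines.

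The CD70 calls outside PEER were less firm. DESeq2 gave adjusted p = 0.068 in MOLT-16 and 0.0821 in PER-117. In MOLT-16 the call was lost without decitabine replicate 1 or 3 or DMSO replicate 1 (adjusted p = 0.0619, 0.0544 and 0.0683), and with the 6 libraries of that line alone (adjusted p = 0.115). In PER-117 it was lost without decitabine replicate 3 or DMSO replicate 1 or 2 (adjusted p = 0.0862, 0.0708 and 0.0767). Loucy had 0.724, 1.23 and 0.410 CPM before and 1.49, 1.45 and 2.74 CPM after, apart but not past the threshold (log2 1.19, adjusted p = 0.232).

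TALL-1 was the line where CD70 was not higher, at 2.15, 0 and 8.77 CPM before and 1.15, 1.65 and 1.15 CPM after (log2 -1.51, adjusted p = 0.217). The value of 8.77 CPM came from replicate 3, the DMSO library with transcripts of PEER. Without that library the change was 0.28 (adjusted p = 0.934), so its direction rests on 1 library.

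TNFSF9 (4-1BBL) had more reads after decitabine in every line, all from few reads. It rose in TALL-1 from 0.215, 0 and 1.07 CPM to 4.37, 2.54 and 2.68 CPM, from 7 and 43 reads (log2 2.70, SE 0.67, adjusted p = 0.00751). It rose in PER-117 from 0.112, 0.730 and 0.216 CPM to 2.37, 1.42 and 2.77 CPM, from 10 and 77 reads (log2 2.56, SE 0.59, adjusted p = 0.00352). Both calls held with any 1 library of the line left out, although the value moved to 4.62 without TALL-1 DMSO replicate 3 and to 3.61 without PER-117 DMSO replicate 2.

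TNFSF9 missed the threshold in the remaining lines. PEER had 0.945, 0.382 and 0.207 CPM before and 1.91, 2.85 and 2.86 CPM after (log2 2.13, adjusted p = 0.058), and MOLT-16 had 1.28, 0.596 and 0.853 CPM before and 3.33, 4.89 and 1.97 CPM after (log2 1.84, adjusted p = 0.111). The groups did not overlap in either. In Loucy 3 reads became 6, a ratio of 2.14 with a 95% counting interval from 0.458 to 13.3.

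TNFSF14 (LIGHT) rose in Loucy, where it went from 0.658, 0.701 and 0.410 CPM to 2.30, 2.47 and 3.95 CPM (log2 2.24, SE 0.36, adjusted p = 5.60e-05). The groups did not overlap, and the call held with any 1 Loucy library left out. In PER-117, the line with the most TNFSF14, it was at 65.2, 76.4 and 70.0 CPM before and 42.5, 46.7 and 45.3 CPM after, apart in all 6 libraries but just short of the threshold (log2 -0.65, SE 0.22, adjusted p = 0.0524). DESeq2 put it at an adjusted p of 0.0192, and edgeR without the 3 DMSO libraries at 0.0145. PEER had 5.73 to 7.71 CPM before and 9.62 to 11.4 CPM after (log2 0.63, adjusted p = 0.242).

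Next to the chromosome 19 ligands, 8 of 10 listed neighbours were tested. SLC25A41, a mitochondrial carrier gene, rose in TALL-1 (log2 1.52) and Loucy (1.43), and in PEER from 3 to 55 reads, a ratio of 16.7 with a 95% counting interval from 5.43 to 83.5. Its TALL-1 call was lost without the 3 DMSO libraries (adjusted p = 0.0533). TRIP10, an adaptor of CDC42 signalling, rose in PEER (1.01) and PER-117 (2.55). VAV1, a guanine nucleotide exchange factor of T-cell receptor signalling, fell in PER-117 (log2 -0.69). TUBB4A was called in none of the lines by edgeR.

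TNFSF10 (TRAIL) rose in TALL-1 and Loucy by modest amounts. In TALL-1 it went from 8.16, 1.48 and 11.8 CPM to 12.7, 18.3 and 19.5 CPM (log2 1.17, SE 0.33, adjusted p = 0.0186), and in Loucy from 5.99, 6.13 and 6.42 CPM to 13.9, 7.84 and 11.8 CPM (log2 0.85, SE 0.29, adjusted p = 0.0422). The treated libraries were above all untreated ones in both lines, and also in PEER, which did not pass (21.4, 24.6 and 20.3 CPM to 28.9, 34.2 and 40.0 CPM, adjusted p = 0.236). PER-117, with the highest level, ranged from 44.6 to 55.7 CPM over its 6 libraries, and MOLT-16 from 9.08 to 16.3 CPM.

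Neither TRAIL call was stable. The low untreated value of 1.48 CPM in TALL-1 was that of DMSO replicate 2, and without that library the change was 0.73 (adjusted p = 0.0739). The TALL-1 call was also lost without decitabine replicate 2 or 3 (adjusted p = 0.0727 and 0.0669) and with that line fitted alone (adjusted p = 0.088). In Loucy the call was lost without decitabine replicate 1 or 3 (adjusted p = 0.221 and 0.121) and without DMSO replicate 1, 2 or 3 (adjusted p = 0.112, 0.107 and 0.0921).

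TNFSF12 (TWEAK) rose in PEER, Loucy and PER-117. PEER went from 2.20, 3.44 and 2.27 CPM to 6.26, 10.4 and 11.1 CPM (log2 1.76, SE 0.46, adjusted p = 0.0261), and PER-117 from 1.34, 2.50 and 1.30 CPM to 7.40, 4.83 and 5.26 CPM (log2 1.76, SE 0.44, adjusted p = 0.00786). The groups did not overlap in either line. In Loucy 0 reads in the untreated libraries became 18, at least 6.43-fold higher against a floor of 3 reads over the group (adjusted p = 0.00617). TALL-1 had 9 reads before and 1 after, a ratio of 0.117 with a 95% counting interval from 0.00266 to 0.841, and MOLT-16 had 4 and 12.

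The TWEAK values carry a further limit. Of its annotated exon bases 29.4% are shared with the readthrough gene TNFSF12-TNFSF13, and reads that fall in such bases cannot be given to one gene. TNFSF12 had 487 reads over the 30 libraries, while TNFSF12-TNFSF13 and its neighbour TNFSF13, which encodes the ligand APRIL, had 0 in every library. TNFSF13 shares 55.5% of its exon bases with the readthrough gene, so 0 reads do not show that its transcript was absent. With reads counted without strand the calls were lost in PEER (log2 0.91, adjusted p = 0.433) and PER-117 (log2 1.48, adjusted p = 0.0669). They were also lost in PEER without decitabine replicate 2 or 3 or DMSO replicate 1 or 3 (adjusted p = 0.0934, 0.0868, 0.0901 and 0.079), and in PER-117 without decitabine replicate 1 or DMSO replicate 1 (adjusted p = 0.0536 and 0.0502). The other 9 ligands share no exon bases with another gene on their strand.

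FASLG and TNFSF13B were called in 0 lines by edgeR, with an unadjusted p under 0.05 in 2 lines each, and by DESeq2 in 0 lines for FASLG and 1 line for TNFSF13B. FASLG in Loucy was at 0.0658, 0.234 and 0.137 CPM before and 0.743, 0.723 and 0.403 CPM after, from 7 and 28 reads, apart but short of the threshold (log2 1.98, adjusted p = 0.0715, and 0.0448 without the 3 DMSO libraries that stood apart). In PER-117 it was at 1.23, 1.46 and 3.24 CPM before and 2.74, 3.41 and 3.14 CPM after, which overlapped. Of its 24 reads in treated MOLT-16, most came from replicate 1 at 4.12 CPM, and the other libraries held 0.979 and 0.395 CPM. TALL-1 had 0 reads of FASLG in all 6 libraries.

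BAFF transcript came closest to the threshold in TALL-1, where it was at 1.29, 0.984 and 3.22 CPM before and 5.52, 2.69 and 4.59 CPM after (log2 1.09, SE 0.40, adjusted p = 0.0675). The untreated library with 3.22 CPM was replicate 3, which held transcripts of PEER, and without it the change was 1.82 (adjusted p = 0.0111). PER-117 (log2 0.74, adjusted p = 0.148) and Loucy (log2 0.54, adjusted p = 0.188) had higher values in all treated libraries without passing. PEER ranged from 8.88 to 14.2 CPM and MOLT-16 from 13.7 to 23.2 CPM over the 6 libraries of the line, with treatments overlapping.

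The responses themselves were compared between the lines. The change with decitabine differed for 6 of the 10 ligands, where 13.6% of all genes differed: LTB (adjusted p = 6.84e-06), TNFSF14 (2.14e-04), LTA (0.00106), TNF (0.0117), CD70 (0.0408) and TNFSF12 (0.0431). Without TALL-1 DMSO replicate 3 the adjusted p for CD70 was 0.427, without all 3 DMSO libraries it was 0.204, and several other single libraries left out also ended that call, with values up to 0.0948. For TNFSF12 it was 0.0691 with reads counted without strand and 0.0556 without the 3 DMSO libraries, and single libraries left out ended that call too. TNFSF10, TNFSF13B, FASLG and TNFSF9 did not pass (adjusted p = 0.114, 0.154, 0.564 and 0.829), which does not show that the lines responded alike. TNFSF10 passed by DESeq2 (adjusted p = 0.0395), with no filter (0.00555), without the 3 DMSO libraries (0.00661) and without TALL-1 DMSO replicate 3 alone (0.0206). TNFSF13B passed without the 3 libraries (0.0215) and without TALL-1 DMSO replicate 3 (0.0381).

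Between Loucy and PER-117, the lines in which LTB went opposite ways, 4 of 10 ligands differed in their response, where 3.99% of all genes did. The difference in log2 change, Loucy minus PER-117, was 2.62 for LTB (SE 0.29, adjusted p = 1.12e-06), 2.89 for TNFSF14 (SE 0.43, adjusted p = 6.25e-05), 4.37 for LTA (SE 0.75, adjusted p = 4.05e-04) and 3.79 for TNF (SE 0.83, adjusted p = 0.00506). In each of these genes the untreated level was higher in PER-117 and the rise was in Loucy.

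With the 5 lines taken as the replicates, edgeR called 0 of the 10 ligands, where 0.0578% of 13830 genes were called higher and 0% lower. At an unadjusted p under 0.05 the count was 4 of 10 (CD70, FASLG, TNFSF10 and TNFSF9), where 16.8% of all genes were. DESeq2 called 1, TNFSF9. FASLG and TNFSF9 do not pass the filter on DMSO libraries alone, so both counts are a description. TNFSF9, which entered the test through the treated libraries, is given as a description, with a log2 change of 2.16 (SE 0.30, adjusted p = 0.0593) that was above 0 in 5 of 5 lines. CD70 was at 1.29 (SE 0.43, adjusted p = 0.199, above 0 in 4 of 5 lines). Without TALL-1 DMSO replicate 3 both passed, TNFSF9 at 2.33 (adjusted p = 0.0495) and CD70 at 1.60 (adjusted p = 0.0304). TNFSF9 also passed without PEER decitabine replicate 1, PEER DMSO replicate 2 or MOLT-16 DMSO replicate 2 (adjusted p = 0.0449, 0.0458 and 0.0439). TNF was above 0 in 5 of 5 lines, at 1.11 (SE 0.53, adjusted p = 0.336).

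Of the receptors these ligands bind, 11 of 17 had enough reads to be tested. In PEER 2 of 11 rose, where 3.54% of all genes did, and in TALL-1 3 rose and 1 fell (background 6.74% and 6.12%). In Loucy 4 rose (10.6%), and in PER-117 1 rose (8.67%), which is near the background. The counts of rises in TALL-1 and Loucy hold TNFRSF9, which entered the test through treated libraries as given below. These counts are therefore a description. In MOLT-16 edgeR called 0 (background 2.19% higher and 1.01% lower), with 2 higher at an unadjusted p under 0.05 and 1 by DESeq2. These counts moved without the 3 DMSO libraries: TNFRSF10B and TNFRSF12A then rose and TNFRSF1A and TNFRSF14 fell in MOLT-16, TNFRSF10A and TNFRSF10B rose and TNFRSF1A and TNFRSF1B fell in PER-117, and CD27 rose in PEER. TNFRSF10D, a decoy receptor of TRAIL that lacks a working death domain, rose in treated TALL-1 to 29.2 CPM against 6.76 CPM (log2 2.10, adjusted p = 3.27e-04), in PER-117 from 12 to 110 reads (log2 2.80) and in Loucy from 0 to 43 reads, at least 15.4-fold. TNFRSF10B, the death receptor DR5 of TRAIL, rose in TALL-1 (log2 0.96) and Loucy (log2 1.07). Its treated libraries also lay above all untreated ones in MOLT-16 (log2 1.14, adjusted p = 0.0701) and PER-117 (log2 0.81, adjusted p = 0.0867), which passed without the 3 DMSO libraries (adjusted p = 0.00411 and 3.31e-04). TNFRSF10A, the death receptor DR4, had log2 values from 0.21 to 1.39 and was not called with all libraries.

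TNFRSF9 (4-1BB), the receptor of TNFSF9, rose in Loucy from 5 to 71 reads (log2 3.78, adjusted p = 1.37e-04). In TALL-1 its 2 reads became 48, a ratio of 25.2 with a 95% counting interval from 6.60 to 213.8 (adjusted p = 6.36e-04). The receptor and its ligand were thus both called in TALL-1. TNFRSF9 had 5 reads or fewer in every untreated group. It therefore entered the test through treated libraries, as TNFSF9 did, and the calls of both genes are a description. TNFRSF1B, the second TNF receptor, rose in PEER from 3.86 to 15.5 CPM (log2 2.04, or 3.88 without the 3 DMSO libraries) and in Loucy from 33.1 to 94.7 CPM (log2 1.52, adjusted p = 0.00116). TNFRSF1A, the TNF receptor with a death domain, fell in TALL-1 (log2 -0.54, adjusted p = 0.0299) and had group means from 38.1 to 84.1 CPM.

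FAS, the receptor of FASLG, rose in PEER from 4.82 to 11.1 CPM (log2 1.16, adjusted p = 0.00989). CD27, the receptor of CD70, was not called with all libraries (in PEER log2 1.16, adjusted p = 0.144, and 1.59, adjusted p = 0.0450, without the 3 DMSO libraries), and its highest mean was 23.5 CPM in untreated MOLT-16. TNFRSF14 (HVEM), TNFRSF13C (the BAFF receptor) and TNFRSF12A (the TWEAK receptor) were not called with all libraries. LTBR, the receptor of lymphotoxin beta, was not tested and had 7 reads or fewer in every group of 3 libraries. TNFRSF11B, a decoy for TRAIL, and TNFRSF6B, a decoy for Fas ligand and LIGHT, had 0 reads in all groups, and TNFRSF17, a BAFF receptor, had 2 reads, in treated Loucy. Exons of the receptors were not checked for overlap with other genes, so 0 reads do not show that a transcript was absent.

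**Figure D4:**
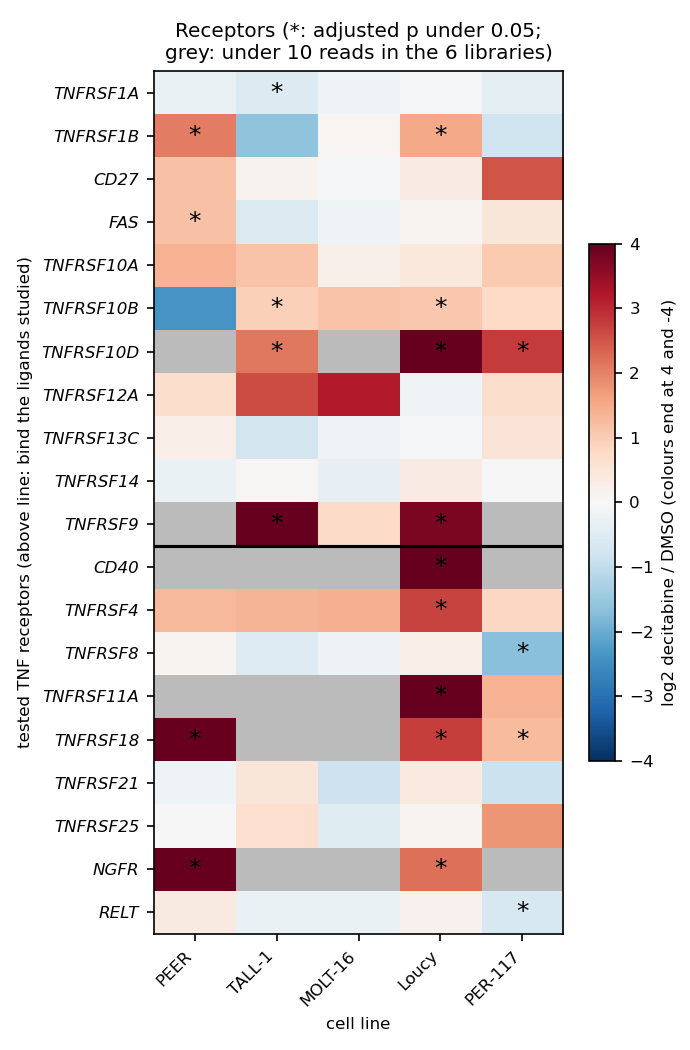
Log2 change with decitabine of the tested TNF receptors by line, in colours that end at 4 and -4. Grey cells had under 10 reads in the 6 libraries, asterisks mark genes past the test, and the black line separates receptors of the ligands studied (above) from others. Asterisks above the line number 4 in TALL-1 and 4 in Loucy, and MOLT-16 has none.

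Among 12 other receptors of the family 9 were tested. Of these 5 rose in Loucy, where 10.6% of all genes did, 2 in PEER (3.54%) and 1 in PER-117 (8.67%). In PER-117 2 fell (3.16%), TNFRSF8 (log2 -1.66, adjusted p = 0.00146) and RELT (log2 -0.63, adjusted p = 0.0136), both named after their values were seen. TNFRSF18 (GITR), a receptor of activated and regulatory T cells, rose in Loucy (log2 2.76), in PER-117 (log2 1.26) and in PEER from 0 to 69 reads, at least 21.0-fold. NGFR rose in Loucy (log2 2.20) and in PEER from 0 to 16 reads, at least 4.86-fold. CD40 in Loucy rose from 2 to 106 reads, a ratio of 56.8 with a 95% counting interval from 15.3 to 475.3. TNFRSF11A (RANK) rose there from 4 to 97 reads (log2 4.45). CD40 and TNFRSF11A stayed under 1 CPM in every untreated library, so they entered the test through treated libraries. NGFR had 1.05 to 1.97 CPM in untreated Loucy and 0 reads in the other untreated groups. It was not checked against the filter without treated libraries. The calls of CD40, TNFRSF11A and NGFR, and the counts of 5 in Loucy and 2 in PEER that hold some of them, are a description. Of 8 other ligands of the superfamily only TNFSF4, TNFSF8 and EDA were tested, and edgeR called none of these 3 in any line, nor did DESeq2, with 1 lower in TALL-1 at an unadjusted p under 0.05.

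Downstream of the receptors, 14 genes of the death pathway were tested. CYLD, a deubiquitinase that restrains NF-κB and favours cell death, rose in PEER, TALL-1, Loucy and PER-117 (log2 0.74, 0.69, 0.64 and 0.94). CFLAR, which blocks caspase 8, and XIAP, which blocks caspases, rose in TALL-1 (log2 0.73 and 0.53). In MOLT-16 CFLAR did not pass (log2 -0.63, adjusted p = 0.0751), and fell without the 3 DMSO libraries (log2 -0.81).

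Among 22 tested genes of TRAF and NF-κB signalling, TALL-1 had the most calls, 7 higher and 1 lower (background 6.74% and 6.12%). RELB, the partner of p52 in the alternative NF-κB pathway, rose in PEER (log2 1.42), TALL-1 (1.30) and Loucy (1.63). BIRC3, an inhibitor of apoptosis and NF-κB target, rose in the same lines (log2 0.89, 1.22 and 0.73). NFKB2, the precursor of p52, rose in TALL-1 (log2 1.64) and PER-117 (1.24). TNFAIP3 (A20), a feedback inhibitor of NF-κB, had 23.0 CPM in untreated and 83.6 CPM in treated TALL-1, a rise (log2 1.85, adjusted p = 5.57e-07), and fell in Loucy from 28.7 to 19.2 CPM (log2 -0.58, adjusted p = 0.0437), the line in which TNF itself rose. FURIN, one of 6 genes listed for ligand processing and a protease that cleaves BAFF and TWEAK, rose in PEER (log2 0.71), TALL-1 (1.04) and Loucy (0.55).

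Markers of other cell types also moved with the drug, though not alike in all lines. In Loucy the summed level of 8 myeloid markers was 10.5 to 13.1 CPM in untreated and 39.2 to 42.4 CPM in treated libraries. Of 4 tested markers 3 rose (background 10.6%), MPO, TYROBP and ITGAM. CD68 and FCGR1A were at 0 reads in untreated Loucy. The summed level of 7 B-cell markers in Loucy was 66.9 to 95.2 CPM before and 99.0 to 103 CPM after. In MOLT-16 this sum was 5.36 to 10.9 CPM before and 13.8 to 22.5 CPM after. In PEER, TALL-1 and PER-117 the treatments overlapped. TYROBP also rose in MOLT-16 and PER-117, and MPO in PEER. In TALL-1 0 of 4 tested myeloid markers had a log2 change above 0 (median -2.86). The sum of all 8 there was low, at 0.984 to 2.86 CPM before and 1.38 to 2.25 CPM after. In PER-117 2 of 4 had a log2 change above 0, with a median of -0.51. Of 10 T-cell markers 4 fell in TALL-1 (background 6.12%), 4 in PER-117 (3.16%) and 1 in Loucy (4.13%), where 1 rose (10.6%). The summed level of 8 natural killer cell markers was 13.3 to 17.5 CPM in untreated and 36.7 to 47.8 CPM in treated TALL-1, and 44.1 to 58.0 against 59.4 to 63.8 CPM in Loucy. In PEER that sum was 7.1 to 20.2 CPM before and 22.5 to 24.8 CPM after. The treatments overlapped in MOLT-16 (139 to 282 and 174 to 237 CPM) and in PER-117 (82.0 to 101 and 86.8 to 98.1 CPM). The part of these changes in the ligand results was not tested.

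Some other genes had levels that followed those of a ligand over the 10 group means of log2 CPM. Among 5790 protein-coding genes that spanned at least 2 log2 units, the closest to LTB were MAL (Pearson r = 0.956), CHRNA9 (0.944) and KCNJ11 (0.942). The closest to CD70 were CCNO (0.981), ALG10B (0.963) and NRN1 (0.945), and the closest to TNFSF12 were EHD3 (0.966), CAVIN1 (0.946) and PANX2 (0.943). The likeness was not complete: in PER-117 the mean of MAL, a membrane protein of T cells, was 139 ± 19.1 CPM before and 286 ± 20.5 CPM after the drug, where LTB fell. These are the highest of many correlations over 10 points that share their lines and libraries, and they are a description.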

How the data were processed

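The deposited files hold counts of reads per gene for the 30 libraries, made with QuantSeq 3′ mRNA sequencing per the labels' protocols. STAR 2.4.2a, DESeq2 and GRCh38 are named in the submitters' processing notes, while no source used here names the annotation release. The counts on the gene's strand were used as deposited, and 56996 of 60554 identifiers matched GENCODE 29. A 3′ count does not scale with transcript length, and levels were not compared between genes. For PEER DMSO replicates 2 and 3, titles and file names disagree, and the title was followed.

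All 30 libraries entered 1 fit of 10 group means in edgeR 4.0.16 (R 4.3.3): TMM scaling, genes kept by filterByExpr with a minimum count of 10, quasi-likelihood F test, and Benjamini-Hochberg adjustment over 15081 genes per comparison. The SE is the log2 change over the square root of F, and is unreliable with few reads. Responses were compared between lines by an interaction test with 4 degrees of freedom, and lines were taken as replicates on counts summed per line and treatment, with the line as a block. Intervals (95%) and the floor of 3 counts over a group cover counting error only. A gene counted as restricted to a line where its median over the DMSO libraries there was 10 CPM or more. In each other line the median of the DMSO libraries and every decitabine library had to be under 1 CPM. Shares were then taken in DMSO libraries only. The fit was tested on simulated data.

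Depth ran from 2197347 to 15391979 gene reads per library. Alternatives were RLE size factors, no filter, a minimum count of 30, DESeq2 1.42.0, counts without strand, the replicate number as a block, the 6 libraries of a line alone, the 3 DMSO libraries with transcripts of another line left out, and each library left out in turn. All ligands and receptors could be named, from each other list at most 4 genes, those called in the most lines, and for 3 ligands the 3 genes most like them. Members, lists and this rule were chosen with earlier results of these data known. Some genes of these lists are not reported here.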

Additional observations from a re-analysis of the deposited data

Results flagged for a closer look

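For 6 ligands the change with decitabine differed between the 5 lines by the interaction test of edgeR with 4 degrees of freedom. The adjusted p was 6.839e-06 for LTB, which rose in Loucy and PEER and fell in PER-117. It was 0.000214 for TNFSF14 and 0.001063 for LTA, which rose in Loucy. It was 0.01169 for TNF, which rose in Loucy, and 0.04307 for TNFSF12, which rose in PEER, Loucy and PER-117. It was 0.04081 for CD70, which rose in PEER, MOLT-16 and PER-117. The CD70 call was lost without TALL-1 DMSO replicate 3 (adjusted p = 0.427). The TNFSF12 call was lost without the 3 DMSO libraries that stood apart (adjusted p = 0.0556).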

How the results depend on the processing

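No ligand that passed the test changed direction under any alternative. The count of rising ligands in PEER was 5 with no filter on low counts, against 3, and 1 to 3 with a library left out. In TALL-1 it was 1 with the stricter filter and 1 with that line's 6 libraries alone, against 2, and 1 to 3 with a library left out, and 1 ligand, CD70, was called lower with no filter. In MOLT-16 it was 0 by DESeq2 and 0 with 6 libraries alone, against 1, and 0 to 1 with a library left out. In Loucy it was 5 to 8 over the alternatives, against 6, and in PER-117 1 to 3 with a library left out, against 3. The count of falling ligands in PER-117 was 2, against 1, with no filter, by DESeq2, without the 3 DMSO libraries, with 6 libraries alone and with the replicate block, the added ligand being TNFSF14. With the lines as replicates the count was 4 with no filter, 1 by DESeq2 and 1 without the 3 DMSO libraries, against 0, and 0 to 2 with a library left out. The cause of these moves was not tested. Same-numbered libraries of the 2 treatments correlated between -0.192 and 0.223 over the lines, and differently numbered ones between -0.303 and 0.266. In PER-117 the same-numbered correlations were 0.074, 0.13 and 0.196, above those of other numbers, which ran from -0.157 to 0.05. Whether replicate numbers pair the samples there was not tested, and the main fit used no block. With the replicate block, 5 ligands rose in Loucy, 3 in TALL-1 and 4 responses differed between lines. Counts over all genes moved most in MOLT-16, where 331 rose and 152 fell. They were 652 and 374 with no filter, 514 and 283 by DESeq2, 1539 and 1249 without the 3 DMSO libraries, and 58 and 1 with 6 libraries alone. Rising genes in PEER were 276 with 6 libraries alone, against 534, and falling genes 89 with RLE size factors, 247 with no filter and 30 with 6 libraries alone, against 145. Falling genes in Loucy were 1259 without the 3 DMSO libraries and 1344 alone, against 623, and in PER-117 881 and 1390, against 477. Few reads limit FASLG, TNFSF9 and TNFSF12 most.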
